A study of Mus musculus with 244 samples.

Results

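TREM2 is a lipid-sensing receptor of macrophages, and 101 of 125 baseline cells from atherosclerotic mouse aortic arch (80.8%, exact 95% binomial interval 72.8 to 87.3, counting error only) held its transcript. These Trem2-listed cells are the baseline cells with a Trem2 value of at least 1 RPKM, that is, reads scaled by transcript length and library size. They are described against the 24 other baseline cells, and a gene is called listed in a cell where its RPKM is 1 or more. The cells were chosen by their measured Trem2 value, so that value is description only. All 24 other cells were at 0, no cell lay between 0 and 1, and the lowest listed cells stood at 1.41, 1.51, 1.84, 2.14 and 2.48 RPKM. The listed cells had a median of 197 RPKM and a highest value of 1642 RPKM, with 13 cells between 1 and 10 RPKM and 64 at 100 RPKM or more.

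The donors were Apoe-/- mice kept on high fat diet for 16 weeks, and baseline arches came from these donors. In the regression group, donor arches were transplanted into WT mice on chow and taken 3 days later. In both groups, cells positive for CD45, CD11b and F4/80 were sorted from digested arches and sequenced singly, and the labels call them macrophages, although the text of the capture protocol speaks of islet cells. The series holds 241 cells from 244 libraries because 3 pairs of baseline libraries were near copies (Pearson r of log2 values from 0.992 to 0.997, the next closest pair among all libraries being at 0.654) and were averaged. The labels name no animal, pool or capture run. Each group is therefore 1 sample, no test was possible, and every spread given is over cells, not over mice. As a model, the baseline cells lack a working Apoe gene, whose product is a ligand of TREM2.

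TREM2 has no signalling motif of its own. It passes its signal through the adaptor TYROBP (DAP12) to the kinase SYK, binds lipids, lipoproteins and apoptotic cells, and is shed from the surface by the proteases ADAM10 and ADAM17. In plaque, Trem2 is known as a marker of lipid-laden foamy macrophages, whose programme includes the secreted phosphoprotein Spp1 (osteopontin), the glycoprotein Gpnmb, tetraspanins, lysosomal hydrolases and lipid-handling genes.

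Baseline libraries carry sample numbers 21 to 92 and 112 to 167, and the labels do not say what these stretches are. Trem2 was listed in 52 of 69 cells of the first stretch (75.4%, 63.5 to 84.9) and in 49 of 56 of the second (87.5%, 75.9 to 94.8). Trem2-listed cells had a median of 2536 genes at RPKM 1 or more (1367 to 4378), and the other cells 2205.5 (1095 to 3644). In cells 21 to 92 the medians were 2555 and 2431, and in cells 112 to 167 they were 2536 and 1866. Depth could be estimated for 58 baseline cells, from 0.409 to 8.33 M reads (M for 1e+06), with medians of 1.17 M in 47 Trem2-listed and 1.42 M in 11 other cells. Mitochondrial transcripts held a median of 7.43% of RPKM in Trem2-listed cells and 5.49% in the others. Xist was listed in none of the 125 cells (at most 2.4% with a count of 0), and at least 1 of 4 Y-linked genes was listed in 93.

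**Figure D1:**
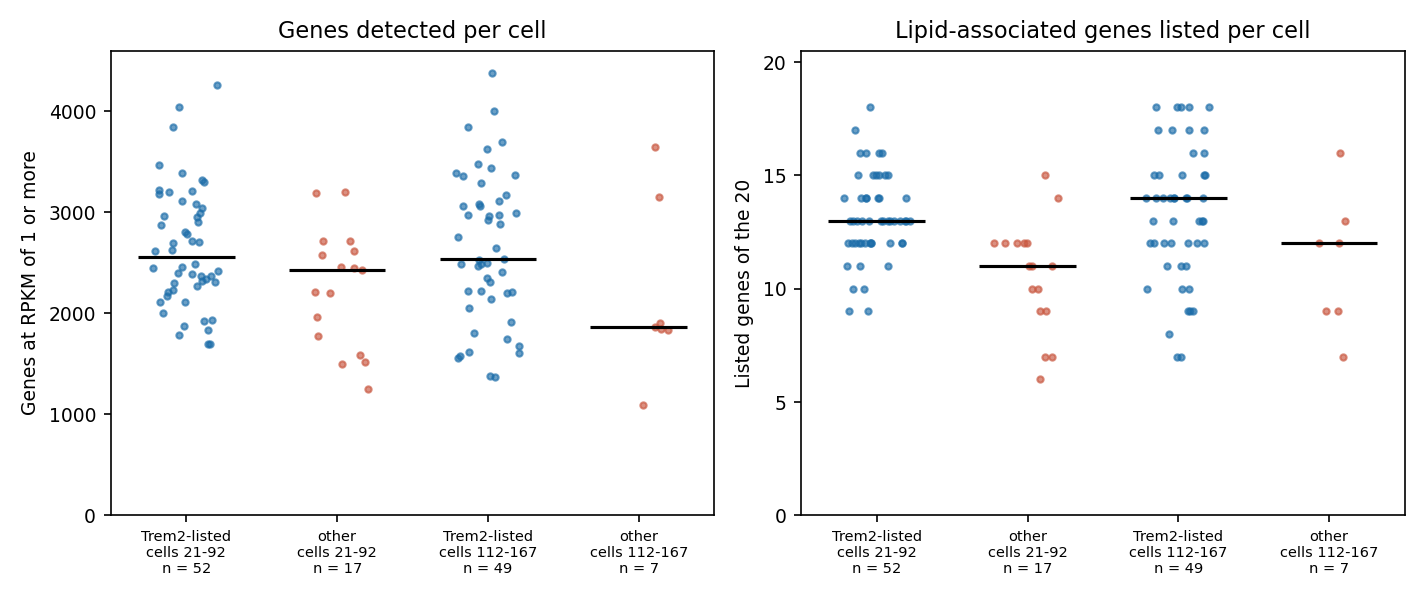
Each point is 1 baseline cell, split by Trem2 class and sample-number stretch, and black bars are medians. Left, the number of genes at RPKM 1 or more; right, how many of the 20 lipid-associated genes were listed. The gap in genes detected was wider in cells 112 to 167 (medians 2536 and 1866) than in cells 21 to 92 (2555 and 2431).

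Macrophage identity was alike in both classes by the count of markers, since 100 of 101 Trem2-listed and 23 of 24 other cells listed at least 3 of 8 macrophage markers. The summed log2 level of the 8 markers nevertheless had a median of 54.5 (13.5 to 67.8) in Trem2-listed cells and 40.8 (9.21 to 62.8) in the others. Adgre1, which encodes the sorted antigen F4/80, was listed in 97 of 101 and 17 of 24 cells. Lyz2, the lysozyme of myeloid cells, was listed in 101 of 101 and 21 of 24. Nonclassical monocyte markers went the other way. At least 3 of their 6 were listed in 13 of 101 Trem2-listed cells (12.9%, 7.04 to 21.0) and in 10 of 24 others (41.7%, 22.1 to 63.4), and all 6 had a lower mean in the Trem2-listed cells. Their summed log2 level ran from 0 to 37.4 with a median of 4.56 in Trem2-listed cells and from 0 to 29.6 with a median of 8.12 in the others. For the 6 classical monocyte markers the counts were 16 of 101 and 5 of 24, with 3 markers higher and 3 lower and summed levels of 0 to 37.8 and 1.53 to 32.5. At least 3 dendritic cell markers were listed in 2 Trem2-listed cells, at least 3 neutrophil markers in 5 and at least 3 fibroblast markers in 2, against none of the 24 others in each case, which allows up to 12.5%. No cell listed 3 markers of T, B, NK, smooth muscle, endothelial, mast, platelet, erythroid or adipocyte type. The part of genes detected and of monocyte markers in the differences below was not tested beyond the values given beside them.

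The label of a Spp1- and Gpnmb-bearing macrophage held for Spp1, while most of the cells did not list Gpnmb. Spp1 was listed in 85 of 101 Trem2-listed cells (84.2%, 75.6 to 90.7) and in 9 of 24 others (37.5%, 18.8 to 59.4). Gpnmb (NCBI Gene 93695, chr6:49036518-49058182) was listed in 18 of 101 (17.8%, 10.9 to 26.7) and in 3 of 24 (12.5%, 2.66 to 32.4), and these intervals overlap widely. In cells 112 to 167 the order was the other way, with 8 of 49 Trem2-listed (16.3%) and 2 of 7 other cells (28.6%). The Gpnmb median was 0 RPKM in both classes, with a highest value of 3976 RPKM in a Trem2-listed cell and 193 RPKM in another cell. Gpnmb and Spp1 were listed together in 17 of 101 Trem2-listed cells, so the cells here are called by Trem2 rather than by the Gpnmb-positive foam cell name. A combination that did cover most of them was Spp1, Cd63 and Igf1, listed together in 71 of 101 Trem2-listed (70.3%, 60.4 to 79.0) and 6 of 24 other cells (25.0%, 9.77 to 46.7). These 3 genes are among the 12 highest of the same split of cells. The gap between the classes follows from that choice and is description only.

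A total of 4131 genes reached RPKM 1 in 25% or more of either class. Of these, 649 (15.7%) had a mean log2(RPKM + 1) higher by 1 or more in Trem2-listed cells, and 113 (2.74%) had one lower by 1 or more. The median difference over all 4131 genes was 0.31, so a typical gene was higher in the Trem2-listed cells, in which more genes were detected. With genes detected and stretch as terms in a linear fit for each gene, that median became 0.02, and 325 genes (7.87%) were higher and 289 (7%) lower by 1 or more. The surplus of higher over lower genes was smaller in that fit, and the part of genes detected in it was not tested. As the mean over 4 strata of stretch and genes detected, 11.3% were higher and 6.66% lower. Within cells 21 to 92 alone the shares were 20% and 5.18%, and within cells 112 to 167, with 7 other cells, 27.4% and 11.1%. Taken as log2 ratios of mean RPKM, 846 genes were higher and 579 lower. In the linear fit 320 of the 649 higher genes (49.3%) stayed higher by 1 or more, and 111 of the 113 lower genes (98.2%) stayed lower by 1 or more. The same sign in both stretches was held by 593 of the 649 and 101 of the 113, beside 59.3% of all genes, although the stretches are parts of the cells that gave the calls. Across genes, which are not independent, the differences of the stretches correlated weakly (Pearson r = 0.20, n = 4131).

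The genes highest in Trem2-listed cells included a tetraspanin, an osteopontin, a growth factor and lysosomal enzymes. Cd63 (NCBI Gene 12512, chr10:128896231-128912822), a tetraspanin of late endosomes and lysosomes, ranged from 0 to 4342 RPKM with a median of 781 in Trem2-listed cells and from 0 to 1809 with a median of 5.85 in the others. The ranges overlapped, but 86 of 101 Trem2-listed cells (85.1%, 76.7 to 91.4) and 8 of 24 others (33.3%, 15.6 to 55.3) held at least 100 RPKM. On the log2(RPKM + 1) scale Cd63 averaged 8.47 ± 3.51 (SD, 101 cells) and 3.95 ± 4.12 (SD, 24 cells), a difference of 4.51, with 5.07 in cells 21 to 92, 4.14 in cells 112 to 167 and 4.12 in the linear fit. Spp1 (NCBI Gene 20750, chr5:104435111-104441053), the secreted matrix protein osteopontin, ranged from 0 to 38466 RPKM with a median of 141, against 0 to 3133 with a median of 0. At least 1000 RPKM was reached by 35 of 101 Trem2-listed and 2 of 24 other cells, so most Trem2-listed cells lay within the range of the others. The difference was 4.14, and 2.92 in the linear fit. Igf1 (NCBI Gene 16000, chr10:87858265-87937047), insulin-like growth factor 1, ranged from 0 to 2018 RPKM with a median of 137, against 0 to 897 with a median of 0.87. Its difference was 3.44, and 3.15 in the linear fit.

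These 3 genes share a short motif in the 250 bases before a RefSeq transcript start (GRCm38.p6, plus strand for each gene; for Cd63 and Igf1 the transcript used starts inside the gene interval printed above, downstream of its first base), which is shown because PU.1 is the lineage-determining factor of macrophages. The capitals mark the PU.1 core, searched as GAGGAAG on both strands; in Cd63 it lies on the reverse strand and reads CTTCCTC. The windows are chr10:128909095-128909344 for Cd63, chr5:104434861-104435110 for Spp1 and chr10:87860861-87861110 for Igf1, and the matches begin 60, 113 and 60 bases before the start.
Cd63: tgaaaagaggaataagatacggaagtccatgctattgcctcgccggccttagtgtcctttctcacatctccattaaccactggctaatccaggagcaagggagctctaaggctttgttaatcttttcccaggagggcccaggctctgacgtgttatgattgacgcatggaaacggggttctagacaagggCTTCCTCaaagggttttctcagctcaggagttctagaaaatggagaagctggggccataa
Spp1: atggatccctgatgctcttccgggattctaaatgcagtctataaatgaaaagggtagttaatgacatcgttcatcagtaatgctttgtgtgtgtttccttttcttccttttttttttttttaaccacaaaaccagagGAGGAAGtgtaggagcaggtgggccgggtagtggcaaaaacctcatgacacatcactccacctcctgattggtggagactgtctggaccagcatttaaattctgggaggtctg
Igf1: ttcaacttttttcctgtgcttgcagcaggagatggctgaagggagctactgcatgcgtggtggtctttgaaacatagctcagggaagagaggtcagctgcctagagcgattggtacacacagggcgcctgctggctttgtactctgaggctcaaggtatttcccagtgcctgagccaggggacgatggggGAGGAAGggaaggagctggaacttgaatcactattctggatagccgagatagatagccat
Of the 12 genes with the highest differences 8 had a window, and only the 3 printed above (37.5%) held the core. Pmp22, Bhlhe41, Stk38l, Scpep1 and Dstn had a window without it. The core occurred in 2 of 9 windows (22.2%) of the 12 lowest genes. It occurred in 375 of 3150 (11.9%) of the genes of the 25% filter with a window. Over all 27025 RefSeq windows the share was 10.4%. A CACGTG motif, bound by the lysosomal regulators of the TFEB family, occurred in 1 of these 8 windows (Bhlhe41), in 4 of 16 windows of the lysosome list (25.0%) and in 9.94% of the 3150. TCATGTG occurred in none and the AP-1 motif TGANTCA in 1 (Igf1) of the 8, against 2% and 4.73%. A match is a description of letters only.

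The other 9 of the 12 genes highest in Trem2-listed cells had differences between 2.91 and 3.86. Pmp22, a membrane protein known from myelin (NCBI Gene 18858, chr11:63128982-63159547), ranged from 0 to 1813 RPKM with a median of 122 in Trem2-listed cells and from 0 to 361 with a median of 0 in the others, a difference of 3.86. Cd14, the lipopolysaccharide co-receptor, was listed in 98 of 101 and 16 of 24 cells, with medians of 782 and 122 RPKM and a difference of 3.71. Both ranges reached 0, so the classes overlapped for both genes. Bhlhe41, a transcription repressor, was listed in 63 of 101 Trem2-listed (62.4%, 52.2 to 71.8) and 2 of 24 other cells (8.33%, 1.03 to 27.0), and its difference was 3.35. Anxa3, an annexin that binds membranes, was higher by 3.21, the kinase gene Stk38l by 3.20, and the actin-severing factor Dstn by 2.91. Scpep1, a serine carboxypeptidase, was higher by 3.03 and Cyb5a, which encodes cytochrome b5, by 2.96. In the linear fit these 9 differences lay between 2.06 and 3.80. Within cells 112 to 167, 11 of the 12 genes remained higher by 1 or more.

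**Figure D2:**
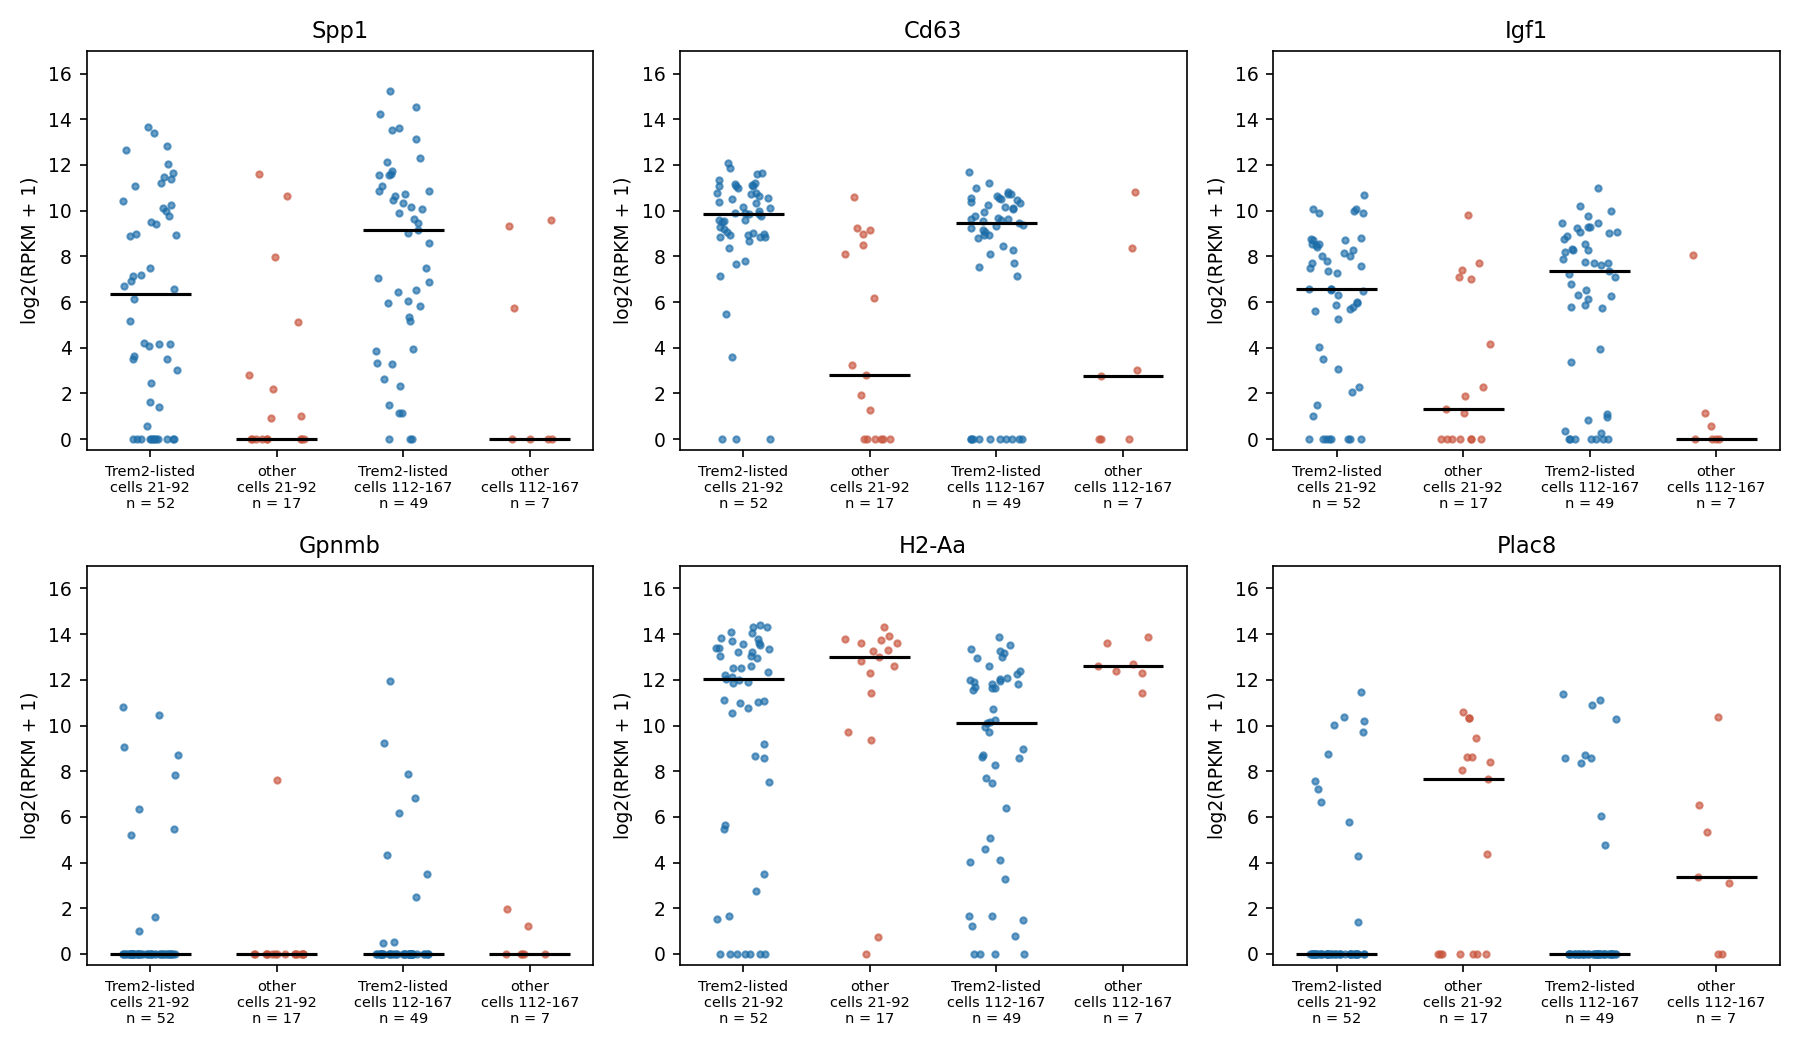
Level of 6 genes, as log2(RPKM + 1), in every baseline cell by Trem2 class and stretch, with black bars at the medians. Spp1, Cd63 and Igf1 were higher in the Trem2-listed cells in both stretches, Gpnmb was at 0 in most cells of every group, and H2-Aa and Plac8 were higher in the other cells, with overlap in all 6.

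The list of 20 lipid-associated plaque macrophage genes, with Trem2 left out, was higher in Trem2-listed cells for 19 genes and lower for 1, and 10 were higher by 1 or more. Its median difference was 0.96, beside 0.31 over all genes. Beside each baseline list count here and below, 15.7% of the 4131 genes were higher and 2.74% lower by 1 or more. Most of the 4131 genes were also above 0, since their median was, so being above 0 is not particular to a list. Besides Cd63 and Spp1 the 10 were the elastase Mmp12 (2.25), the cathepsin Ctsd (1.97), the tetraspanin Cd9 (1.89), the galectin Lgals3 (1.85), the lysosomal acid lipase Lipa (1.67), the lipoprotein lipase Lpl (1.37), Anxa5 (1.31) and the protease inhibitor Cstb (1.09). The 1 lower gene was the fatty acid binding protein Fabp4 at -0.42. Fabp5 (0.00), the dendritic cell and foam cell integrin Itgax (0.22), the scavenger receptor Cd36 (0.50), the lipid droplet coat Plin2 (0.57) and Gpnmb (0.74) differed by less than 1. The proton pump subunit Atp6v0d2 was listed in 11 of 101 Trem2-listed and in none of the 24 others, for which up to 12.5% remains possible.

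In the linear fit the median of the lipid-associated list was 0.51, beside 0.02 over all genes. In that fit 7 of 20 genes were higher by 1 or more (Cd63, Spp1, Mmp12, Cd9, Ctsd, Lgals3 and Lipa), beside 7.87% of all genes. The part of genes detected in the list difference was not tested. The medians were 0.82 in cells 21 to 92, beside 0.29 over all genes, and 0.78 in cells 112 to 167, beside 0.38. Counted per cell, Trem2-listed cells listed a median of 13 of the 20 genes (7 to 18) and the others 11 (6 to 16). Over all genes the medians of genes detected were 2536 and 2205.5, also higher in the Trem2-listed cells. Lpl was unequal between stretches, at 0.45 in cells 21 to 92 and 2.22 in cells 112 to 167, whereas Mmp12 stood at 1.62 and 3.28.

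Genes of the TREM2 pathway itself differed little. Of 14 genes for adaptors, kinases, sheddases and ligands, 1 was higher by 1 or more and none lower, and the median was 0.11. Tyrobp, the obligate adaptor (NCBI Gene 22177, chr7:30413782-30417582), ranged from 13.1 to 9458 RPKM with a median of 2704 in Trem2-listed cells and from 6.82 to 7482 with a median of 2901 in the others. It was listed in every cell of both classes, and the difference was 0.15. The kinase Syk differed by -0.04, the phospholipase Plcg2 by 0.12, the phosphatase Inpp5d by 0.52 and the kinase regulator Pik3r1 by 0.72. The sheddase Adam17 was the 1 gene past 1, at 1.13, but at 0.61 in the linear fit, and Adam10 differed by 0.26. Apoe was listed in 8 of 101 and 1 of 24 cells, the donors being Apoe-/-, and Apob was listed in 0 of the 125 (at most 2.4% with a count of 0). Among 9 other TREM and TREM-like receptors the median was -0.04. The inhibitory receptor Cd300a was lower by 1.47, with -0.52 in cells 21 to 92 and -3.27 in cells 112 to 167.

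Several lysosomal hydrolases were higher in Trem2-listed cells, while no proton pump or regulator gene of the list differed by 1. Of 19 lysosome genes 7 were higher by 1 or more and none lower, beside 15.7% and 2.74% of all genes. The list median was 0.73, or 0.16 in the linear fit, beside 0.31 and 0.02 over all genes. In the linear fit 7 genes were again higher by 1 or more, beside 7.87% of all genes. The 7 higher genes included the protease Ctsl (2.81), the membrane proteins Lamp1 (2.19) and Lamp2 (2.03), the legumain gene Lgmn (1.96), Hexa (1.84) and Ctsa (1.33). Ctsl ranged from 0 to 2118 RPKM with a median of 30.6 in Trem2-listed cells and from 0 to 658 with a median of 0 in the others. Lgmn and Ctsa turned between the stretches, from 3.26 and 2.22 in cells 21 to 92 to -0.60 and -0.52 in cells 112 to 167. The regulators Tfeb (-0.41) and Tfe3 (-0.02) did not differ by 1, nor did Mitf (0.73).

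Of 12 genes that take up apoptotic cells or opsonize them, 11 were above 0 and 6 were higher by 1 or more, beside 15.7% of all genes. The list median was 0.97, beside 0.31 over all genes. In the linear fit the median was 0.65 and 3 were higher by 1 or more (C1qb, C1qa and Stab1), beside 7.87% of all genes. C1qb, a chain of complement C1q (NCBI Gene 12260, chr4:136880126-136886200), ranged from 0 to 12609 RPKM with a median of 4310 in Trem2-listed cells and from 0 to 6938 with a median of 2684 in the others. It was listed in 100 of 101 and 21 of 24 cells, and its difference was 2.54. C1qa differed by 2.31, C1qc by 1.14, the scavenger receptor Stab1 by 1.53, the receptor kinase Axl by 1.38 and the endocytic receptor Lrp1 by 1.00. The receptor kinase Mertk differed by 0.38.

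Some genes of cholesterol export were higher, and no gene of sterol synthesis was higher by 1. Of 14 genes of efflux and liver X receptor targets, 4 were higher by 1 or more, with a median of 0.20. The median was 0.31 over the 4131 genes of the 25% filter, which 11 of the 14 passed. Over all 13028 genes listed in at least 1 baseline cell it was 0.07. The 4 higher genes were the lysosomal cholesterol carrier Npc2 (2.08), the exporters Abca1 (1.84) and Abcg1 (1.22), and the cholesteryl ester hydrolase Nceh1 (1.08). In the linear fit Abcg1 (0.70) and Nceh1 (0.82) were below 1, and the list median was -0.07. Abca1 ranged from 0 to 445 RPKM with a median of 20.0 in Trem2-listed cells and from 0 to 218 with a median of 1.13 in the others. Of 12 genes of sterol synthesis and uptake, 10 were below 0 and none differed by 1, with a median of -0.30 and of -0.48 in the linear fit. Only 3 of the 12 genes were listed in 25% of either class.

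Of 15 genes described in disease-associated microglia, where Trem2 is required for the full programme, 7 were higher by 1 or more and 1 lower, beside 15.7% and 2.74% of all genes, with a median of 0.49. Igf1 led them, followed by the metalloprotease inhibitor Timp2 (1.82), Lyz2 (1.58), the adhesion gene Cadm1 (1.55), Axl, the ferritin chain Fth1 (1.33, a gene with pseudogene copies that can share its reads) and Hif1a (1.18). Cadm1 stood at 2.30 in cells 21 to 92 and -0.04 in cells 112 to 167, and Axl (0.94) and Hif1a (0.85) were below 1 in the linear fit, where the list median was 0.30. The fungal receptor Clec7a was lower by 1.00. Among 14 transcription factor and growth factor receptor genes of macrophages, 4 were higher by 1 or more, among them Bhlhe41, Maf (1.69) and Spi1 (1.14), which encodes PU.1. Bhlhe40, the close relative of Bhlhe41, was lower by 1.29.

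**Figure D3:**
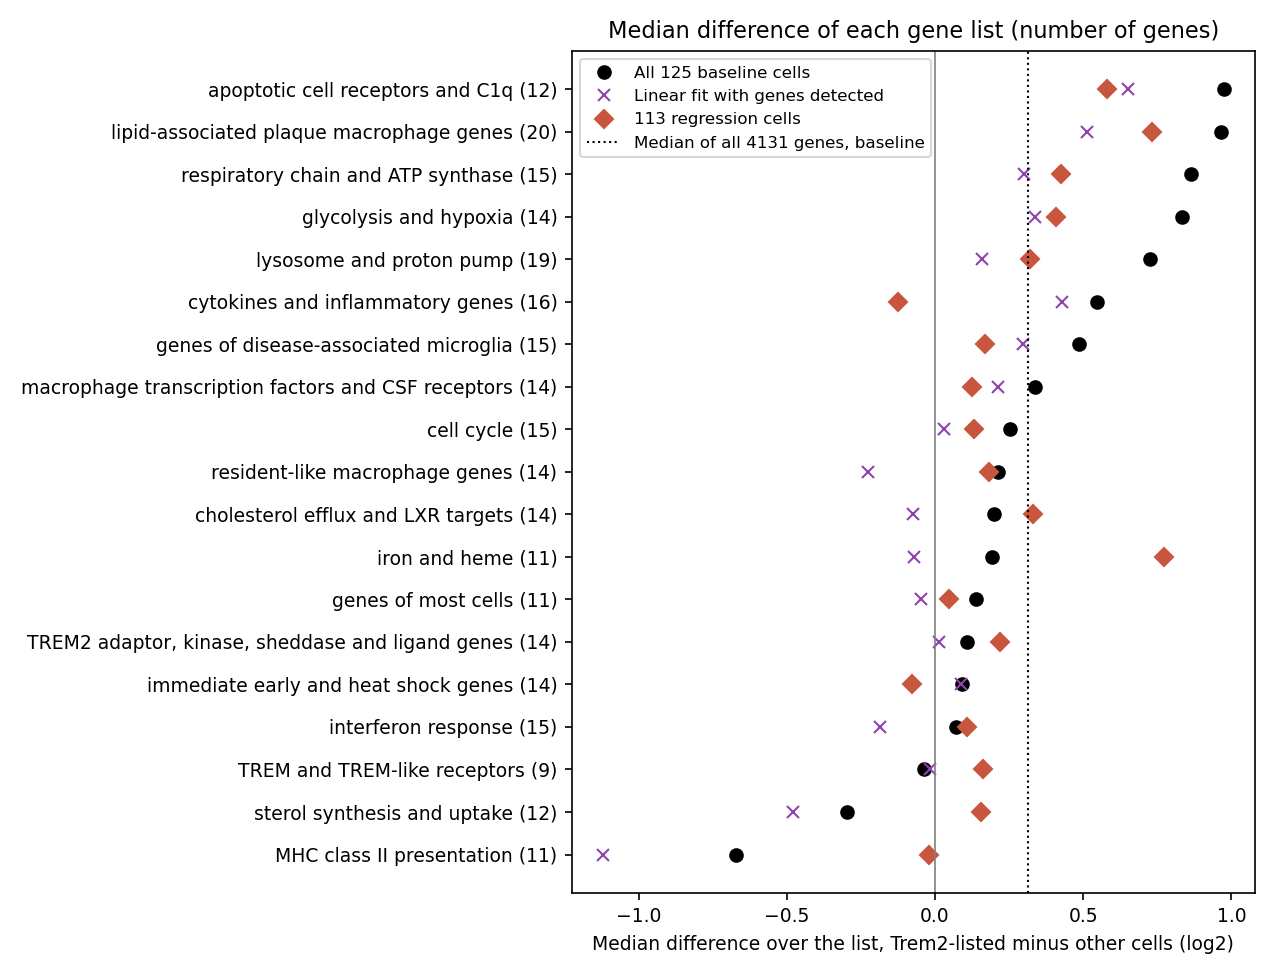
Median difference in mean log2(RPKM + 1), Trem2-listed minus other cells, over the genes of each list (number of genes in brackets). Circles are the 125 baseline cells, crosses the linear fit with genes detected, diamonds the 113 regression cells, and the dotted line is the baseline median of all 4131 genes (0.31). The lipid-associated list stood at 0.96, 0.51 and 0.73 and the MHC class II list at -0.67, -1.12 and -0.02.

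The MHC class II chains themselves were lower in the Trem2-listed cells. Of 11 genes of MHC class II presentation and costimulation, 5 were lower by 1 or more, beside 2.74% of all genes. Of the 11, 3 were above 0 and none was higher by 1. The list median was -0.67, and -1.12 in the linear fit, beside 0.31 and 0.02 over all genes. H2-Aa, the class II alpha chain (NCBI Gene 14960, chr17:34282744-34287823), ranged from 0 to 21730 RPKM with a median of 2234 in Trem2-listed cells and from 0 to 20188 with a median of 7008 in the others. It was listed in 89 of 101 and 22 of 24 cells, and at least 1000 RPKM was reached by 60 of 101 (59.4%, 49.2 to 69.1) and 20 of 24 (83.3%, 62.6 to 95.3). The ranges of the classes overlapped almost fully. Its difference was -2.62, with -1.63 in cells 21 to 92 and -4.26 in cells 112 to 167. The beta chain H2-Ab1 stood at -2.47, H2-Eb1 at -2.20, the peptide loading factor H2-DMa at -1.45 and the invariant chain Cd74 at -1.41. In cells 21 to 92 H2-Ab1 stood at -0.85, H2-Eb1 at -1.50 and Cd74 at -0.67. In cells 112 to 167, with 7 other cells, the values were -4.89, -2.95 and -3.01. The costimulator Cd86 was at 0.87, and the class II transactivator Ciita, listed in 15 of 101 and 7 of 24 cells, at -0.67.

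The 12 genes lowest in Trem2-listed cells included, besides H2-Aa, H2-Ab1 and H2-Eb1, several genes known from monocytes. Plac8 (NCBI Gene 231507, chr5:100551589-100572253), a monocyte-associated gene that is also 1 of the 6 classical monocyte markers, was listed in 22 of 101 Trem2-listed (21.8%, 14.2 to 31.1) and 15 of 24 other cells (62.5%, 40.6 to 81.2). It ranged from 0 to 2847 RPKM with a median of 0 in Trem2-listed cells and from 0 to 1543 with a median of 29.6 in the others, a difference of -2.99. The Src-family kinase Fgr (-2.37), the eosinophil-associated ribonuclease Ear2 (-2.33, uncertain because reads can be split among its near-identical relatives), the hydroxylase Cyp4f18 (-2.27), the ribonuclease Rnase6 (-2.70) and the adhesion receptor Adgre5 (-1.72) were also among them. The remainder were the methionine adenosyltransferase Mat2a (-2.39), the translocon factor Sec63 (-2.12) and the aspartic protease Napsa (-1.90). All 12 were lower by 1 or more in the linear fit, where they lay between -2.98 and -1.83. Without the 35 cells that listed 3 or more monocyte or dendritic cell markers, Ear2 stood at 0.61 rather than -2.33. That set held 79 Trem2-listed and 11 other cells. Chemokine receptor Ccr2, a marker of recruited monocytes, was listed in 71 of 101 and 19 of 24 cells and differed by -1.14.

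**Figure D4:**
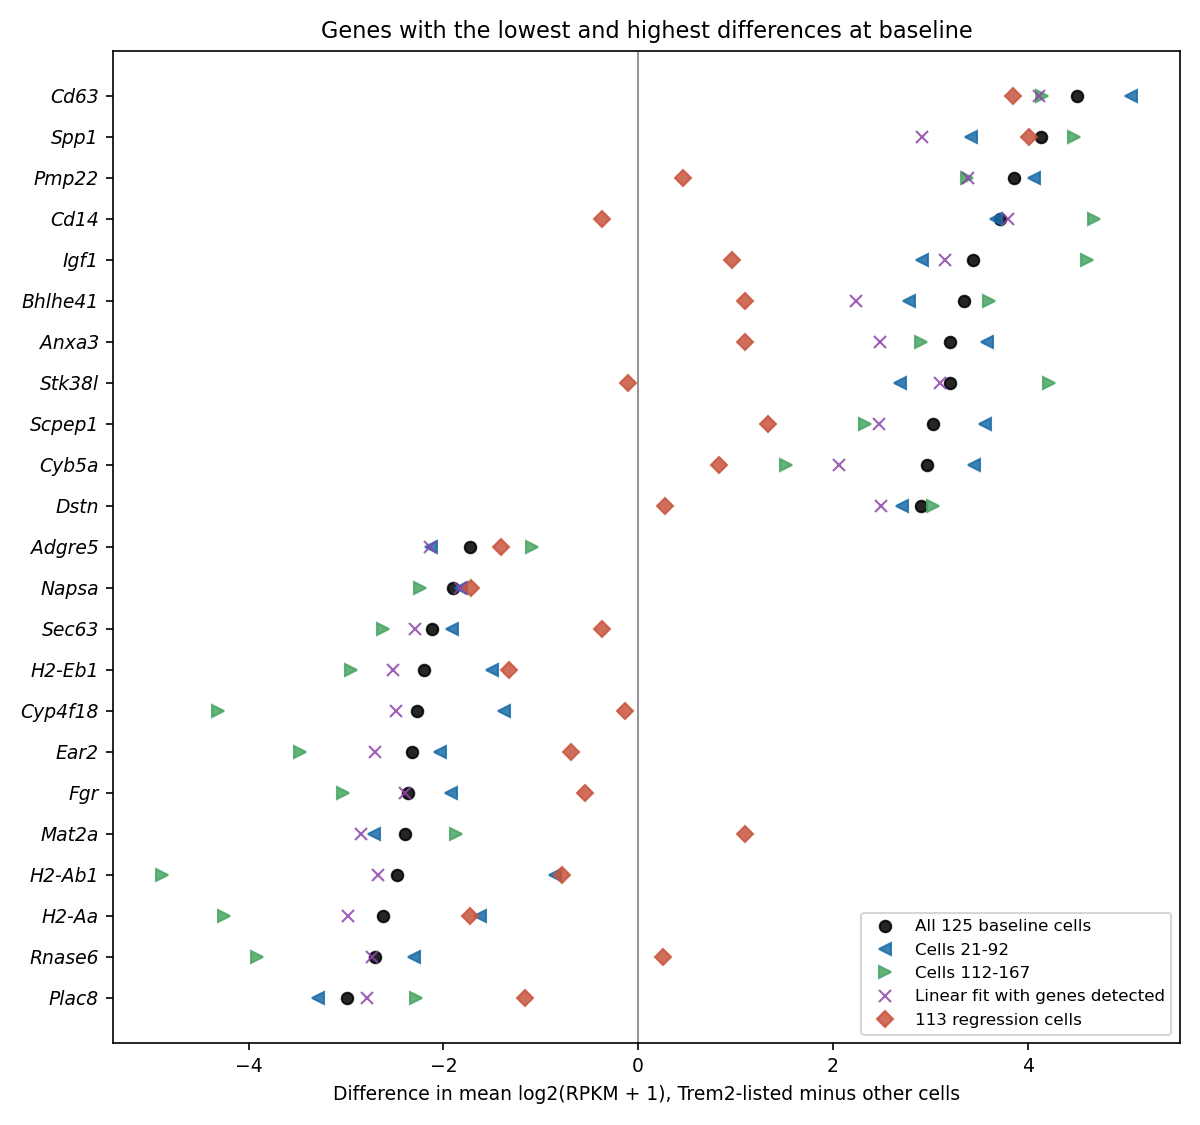
Difference in mean log2(RPKM + 1), Trem2-listed minus other cells, for 11 of the 12 genes highest and the 12 lowest at baseline. Circles are all 125 baseline cells, triangles the 2 stretches, crosses the linear fit with genes detected and diamonds the 113 regression cells. Agreement in sign between the stretches was part of how these genes were chosen. In regression cells, which the choice did not use, 19 of the 23 had the same sign. Of all 4131 genes, 66.4% were above 0 and 33.6% below 0 in those cells.

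Of 16 cytokine and inflammatory genes, 14 were above 0 and 2 were higher by 1 or more, the chemokines Ccl3 (2.41) and Ccl2 (1.23, or 0.63 in the linear fit). The list median was 0.55, and 0.43 in the linear fit, beside 0.31 and 0.02 over all genes. Il1b was listed in 54 of 101 and 15 of 24 cells, and its difference turned from 1.14 in cells 21 to 92 to -1.11 in cells 112 to 167. Of 14 resident-like macrophage genes none was higher by 1 and the coagulation factor F13a1 was lower by 1.33, with a median of 0.21, or -0.23 in the linear fit. Lyve1, the hyaluronan receptor of perivascular macrophages, was listed in 35 of 101 and 6 of 24 cells (difference 0.00). Retnla, a gene of alternative activation, was listed in 50 of 101 and 7 of 24 (0.61), and fibronectin, Fn1, in 53 of 101 and 11 of 24 (0.44). The cycling marker Mki67 was listed in 15 of 101 and 2 of 24 (0.44).

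Trem2-listed cells varied widely among themselves. Over these 101 cells the gene with the largest SD of log2(RPKM + 1) was H2-Aa (4.81), and other genes near the top were the chemokines Ccl12 (4.72), Ccl2 (4.66) and Ccl7 (4.60), H2-Ab1 (4.64), Pf4 (4.63), Spp1 (4.56) and Retnla (4.51). The mean log2 level of the lipid-associated list ran from 2.74 to 8.85 with a median of 5.25 in Trem2-listed cells, and from 2.03 to 6.71 with a median of 4.13 in the others. That of the MHC class II list ran from 1.11 to 10.28 with a median of 6.71, against 1.10 to 9.62 with a median of 8.02. Within the Trem2-listed cells the lipid-associated and MHC class II levels showed no linear relation (Pearson r = -0.01, n = 101 cells). The lipid-associated level ran with the lysosome level (r = 0.67; 0.49 in cells 21 to 92 and 0.78 in cells 112 to 167). It also ran with genes detected (r = 0.55; 0.22 and 0.75), which all levels from 1 library share, and the cells are not independent animals.

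**Figure D5:**
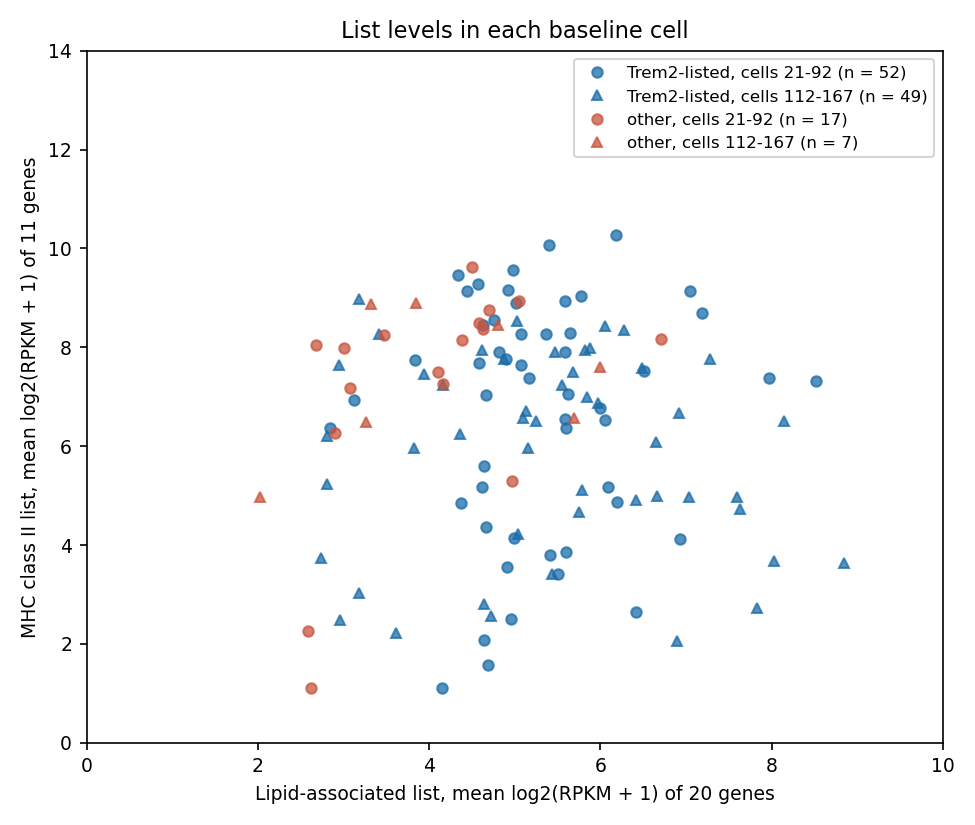
Mean log2(RPKM + 1) of the 20 lipid-associated genes (x axis) and of the 11 MHC class II genes (y axis) in each of the 125 baseline cells, by Trem2 class (colour) and stretch (marker). Trem2-listed cells spread from 2.74 to 8.85 on the x axis and from 1.11 to 10.28 on the y axis, and the other cells lie mostly to the left, with a median of 4.13, and high, with a median of 8.02.

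The same contrast was taken in regression cells, a separate set of cells which the choice of members did not use. Trem2 was listed in 83 of 113 regression cells (73.5%, 64.3 to 81.3), after leaving out 3 with fewer than 1000 genes. Of 3934 genes, 477 (12.1%) were higher and 111 (2.82%) lower by 1 or more in Trem2-listed regression cells, with a median of 0.26. More genes were detected in these cells too, with medians of 2446 and 2209.5, and the regression differences were not adjusted for it. Across the 4131 baseline genes, which are not independent, baseline and regression differences correlated weakly (Pearson r = 0.24). Cd63 differed by 3.85 and Spp1 by 4.01, beside 4.51 and 4.14 at baseline. In the regression cells numbered from 1, 93 and 168, where Trem2 was listed in 50.0%, 83.3% and 77.3%, Cd63 stood at 3.78, 1.78 and 3.03 and Spp1 at 2.69, 5.77 and 3.48. Spp1 was listed in 78 of 83 Trem2-listed regression cells and 16 of 30 others, and Cd63 in 65 of 83 and 12 of 30. The median of the lipid-associated list was 0.73, with 17 of 20 genes above 0 and 7 higher by 1 or more, and 1.00, 1.31 and 0.75 by stretch. Of the 4131 genes of the baseline filter, 66.4% were above 0 in regression cells. Of the 12 genes highest at baseline, 10 were above 0, beside that 66.4%, and 6 were higher by 1 or more, beside 12.1%. Cd14 stood at -0.37 and Stk38l at -0.10. Igf1 was listed in 16 of 83 and 1 of 30 regression cells, and differed by 0.96.

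The lower genes carried over less evenly. Of the 12 lowest at baseline, 10 were below 0 in regression cells and 5 lower by 1 or more, with Mat2a at 1.09 and Rnase6 at 0.26. By regression stretch, 6, 3 and 10 of the 12 were below 0 in the cells numbered from 1, 93 and 168. H2-Aa stood at -1.72 and the MHC class II list at -0.02. Of the 649 genes higher at baseline, 498 (76.7%) were above 0 in regression cells, beside 66.4% of all genes. Of the 113 lower genes, 53 (46.9%) were below 0, beside 33.6%. Apoe, which recipients carry and donors lack, was listed in 82 of 83 and 30 of 30 regression cells. Whether any of these differences itself changed between baseline and regression was not tested, since each group is 1 sample.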

How the data were processed

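Cells were captured and lysed on the Fluidigm C1, cDNA came from the SMARTer kit and libraries from Nextera XT, per the labels' protocols. The authors deposited 1 table of RPKM values for 24475 genes, 8840 of them at 0 in every library. The mm10 build, CASAVA 1.8.2 and FastQC come from the submitters' processing notes, and the program behind the RPKM values was not given there. RPKM are not counts, so no count test was run. Depth was estimated from the value of 1 read in low genes and was agreed in 104 of 244 libraries. It was not used to rescale values.

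Analyses used Python 3.11.15, numpy 2.4.6, pandas 2.3.3 and scipy 1.17.1. Differences are those of mean log2(RPKM + 1), with a pseudocount of 1, and the call is a difference of 1 or more on the log2 scale. Unless stated otherwise, counts and medians over all genes cover those listed in 25% of the cells of either class. List counts and medians cover every member, also those below that filter. It was passed by 5 of 15 cell cycle genes, 3 of 12 genes of sterol synthesis and uptake and 2 of 9 TREM receptors. The difference scale understates low genes. Shares carry exact Clopper-Pearson 95% intervals, which cover counting error only, and a count of 0 allows 3 cells. The named genes are the 12 highest and 12 lowest that kept their sign in both stretches and in 4 strata of stretch and genes detected (predicted, clone-named, receptor segment and sex-linked genes left out), every member of the lipid-associated and TREM2 pathway lists, the 2 largest of each other list, and genes fixed by name. Other genes in the text are members of the lists, named after their values were seen. The members and the lists were chosen with earlier results of these data known. The alternatives were other pseudocounts, filters, scaling, Trem2 thresholds, subsets of cells, the strata and, added after seeing the data, the linear fit and the set without monocyte-marker cells. A small number of list members count in the totals and are not reported here by name. Some lists share genes (Axl, Igf1, Fth1). Positions and promoter windows are RefSeq GRCm38.p6, the same build as mm10.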

Additional observations from a re-analysis of the deposited data

How the results depend on the processing

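Of the 60 named genes with a difference of 1 or more, 57 kept their sign under all 16 alternatives, but 24 of the named genes were chosen for keeping it in both stretches and the strata, which are among these. A Trem2 cut of any value above 0 gave the same classes, and the gene filters do not enter a gene's difference. Those alternatives could not change a sign. Tubb5 turned to -0.0316 in cells with at least 2000 genes. Ifi27l2a turned to -0.00207 as a log2 ratio of mean RPKM and to -0.0496 without cells listing 3 or more monocyte or dendritic cell markers, and Ear2 to 0.61 in that set; the cause was not tested. The counts of 649 higher and 113 lower genes moved most. They were 1355 and 306 with a pseudocount of 0.1, 154 and 21 with 10, 1165 and 648 in cells 112 to 167, 325 and 289 in the linear fit, and 1080 and 322 without monocyte-marker cells. The lower count alone moved to 275 in 4 strata, 216 in cells 21 to 92, 39 with Trem2 at 10 RPKM or more, 499 in cells with at least 2000 genes and 579 as log2 ratios. The lipid-associated median stayed between 0.64 and 1.44 except in the linear fit (0.51), and between 0.54 and 0.93 under the alternatives run on all regression cells together. The Trem2-listed share was 87.5% in cells 112 to 167, 70.4% at 10 RPKM and 87.8% without monocyte-marker cells. The gap in median genes detected (330.5) was 124 in cells 21 to 92, 670 in cells 112 to 167, 532 at 10 RPKM, 181 in cells with at least 2000 genes and 712 without monocyte-marker cells. The median of all genes was 0.37 after rescaling each cell to one sum and 0.10 as log2 ratios. No paired analysis was possible because the groups share no replicate numbers. The other class holds 24 cells, 7 of them in cells 112 to 167, and 11 cells in the set without monocyte-marker cells. A gene at 0 may be expressed below the depth of its library.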

Other observations

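Some energy metabolism genes were higher in the Trem2-listed baseline cells, in which more genes were detected. Beside each count below, 15.7% of all genes were higher and 2.74% lower by 1 or more, with a median of 0.31, or 0.02 in the linear fit. Of 15 genes of the respiratory chain and ATP synthase, 7 were higher by 1 or more, none was lower by 1 and 4 were below 0, with a median of 0.86, or 0.30 in the linear fit. The largest was the ATP synthase subunit Atp5g3, with medians of 61.6 RPKM in Trem2-listed and 0.76 RPKM in other cells and a difference of 2.39. Of 14 genes of glycolysis and hypoxia, 4 were higher by 1 or more and 1 lower, with a median of 0.83, or 0.34 in the linear fit. Aldoa, the glycolytic aldolase, differed by 2.07, and Ldha, which makes lactate, by -1.05, so genes of the same route went opposite ways.

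Of 15 cell cycle genes 4 were higher by 1 or more, among them Pcna (2.03), the clamp of DNA replication, with a list median of 0.25, or 0.03 in the linear fit. Of 15 interferon response genes, 2 were higher (Bst2 at 1.18 and Ifi27l2a at 1.12) and 1 lower (Ifitm3 at -1.12), with a median of 0.07. Among 14 immediate early and heat shock genes, 1 was higher by 1 or more, the stress factor Atf3 (1.43), and Jun stood at -0.70, with a median of 0.09. Of 11 iron and heme genes, Fth1 was higher by 1.33 and Ncoa4, the receptor that delivers ferritin to lysosomes, lower by 1.57, with a median of 0.19. Of 11 genes of most cells, 3 were higher by 1 or more, among them Hprt at 1.61 and Pgk1 at 1.59, with a median of 0.14.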
